A study of Saccharomyces cerevisiae with 9 samples.

Results

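Iron sparing and iron-sulfur cluster assembly were followed through 10 genes of the budding yeast Saccharomyces cerevisiae, chosen by their symbols in the array annotation (the brightest probe set where a gene has several): TIS11 (YLR136C, also called CTH2), CTH1 (YDR151C), HMX1 (YLR205C), ISU1 (YPL135W), ISU2 (YOR226C), NFS1 (YCL017C), ISA1 (YLL027W), ISA2 (YPR067W), YFH1 (YDL120W) and AFT1 (YGL071W). All 10 were measured, each by a single probe set of the oligonucleotide array, among 5449 genes in all, and all 10 lay above background on every array. Cultures in rich YPD medium were exposed for 180 min from mid-exponential phase. There were 3 control cultures that received only ethanol, the solvent, 3 that received 50 mg/L bisphenol A (BPA, the monomer of polycarbonate plastics) in ethanol and 3 that received 300 mg/L, with 1 array per culture. No source used here gives the strain, cell density, growth rate or RNA per cell. GEO lists the replicates as biological but gives no account of their inocula, so the p-values measure the spread between these cultures, and 3 arrays per group limit the precision.

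Iron-sulfur clusters are cofactors built in the mitochondrion. The cysteine desulfurase Nfs1 supplies sulfur, the scaffold proteins Isu1 and Isu2 hold the nascent cluster, and the frataxin homologue Yfh1 assists its formation on the scaffold. Isa1 and Isa2 act later, in the maturation of a subset of mitochondrial cluster proteins. When iron is short, the transcription factor Aft1 activates genes of iron uptake and mobilisation. Among its targets is TIS11, whose zinc-finger protein binds AU-rich elements in messenger RNAs of iron-using proteins and promotes their decay, which spares iron. Cth1 is its paralogue, and Hmx1, a haem oxygenase, releases iron from haem.

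Values are log2 expression values as deposited, so a difference of 1 is a 2-fold change, and a change is always one relative to the rest of the array. Levels of different genes come from different probes, so which of 2 genes was more abundant was not judged. Differences between genes were used only for their change between groups. Background was the 95th percentile of the probe sets for fission yeast on the same array, which ran from 2.05 to 2.20. Between 5415 and 5418 genes lay above it on the 300 mg/L arrays, and between 5363 and 5374 on the other 6. The median of all probe sets was 4.86 to 4.96 on the 300 mg/L arrays and 4.42 to 4.58 on the other 6. The lowest value of the 10 genes was 4.90, for HMX1. The 300 mg/L arrays stood apart from the other 6 on the first principal component (80.2% of the variance), and 50 mg/L replicate 2 stood apart on the second (8.61%). Changes were tested with limma over all 9 arrays, with Benjamini-Hochberg adjustment over the 5449 genes and a threshold of 0.05.

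At 300 mg/L BPA the messenger RNA decay factor genes TIS11 and CTH1, the cluster factor gene ISA1 and the regulator gene AFT1 rose most, by 2.82, 1.90, 2.24 and 1.76 times against control. Of the 10 genes, 8 rose, 1 (NFS1) fell and 1 (ISA2) did not pass. Over all genes 52.7% passed, 27.5% higher and 25.2% lower, so the count of members that passed is to be read against a broad response. The median change of the 10 genes was 0.54 on the log2 scale, and that of all genes was 0.01. In all 10, the 3 arrays at 300 mg/L did not overlap the 3 control arrays, 9 of them higher and NFS1 lower. Over all genes 67.8% did not overlap, 35.2% higher and 32.6% lower.

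**Figure D1:**
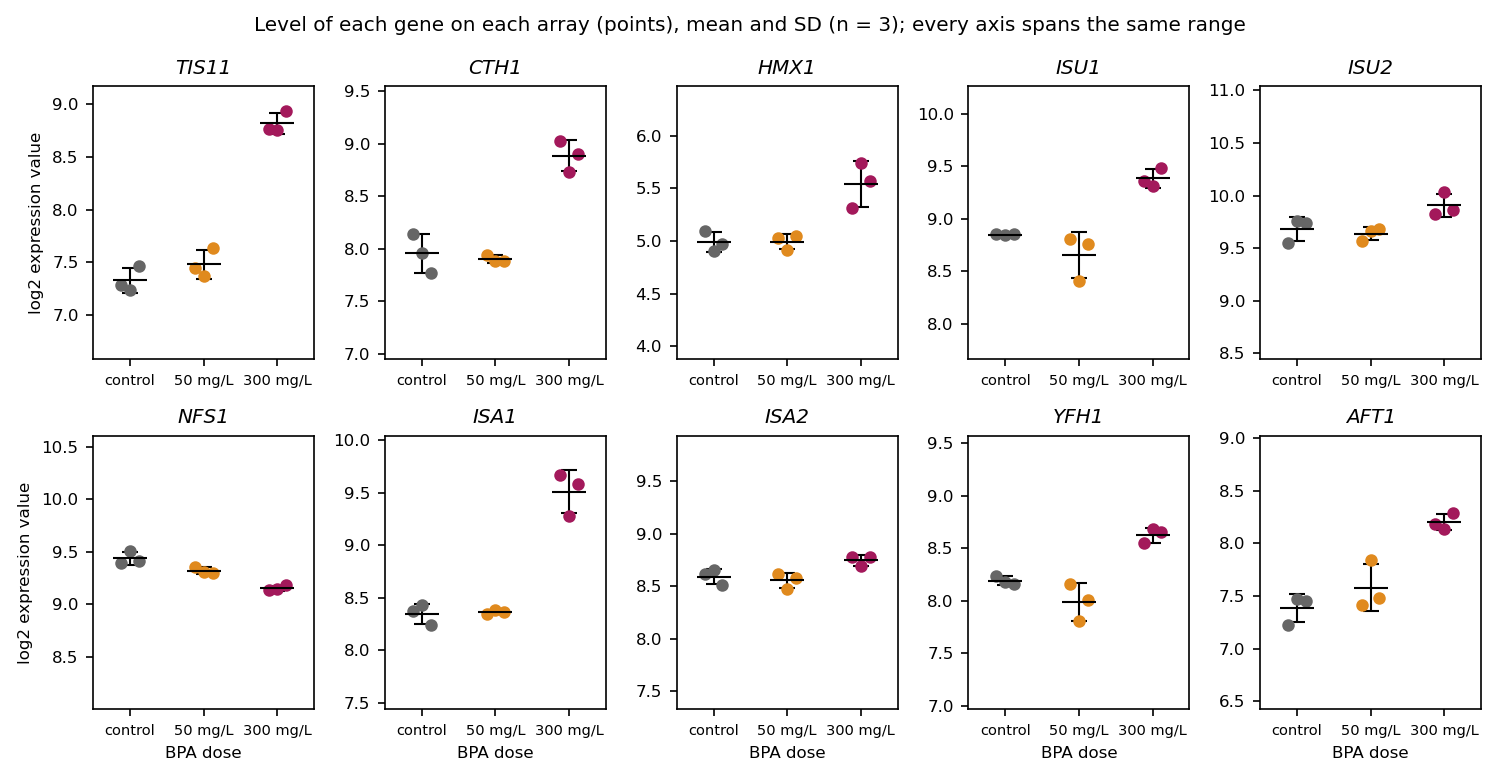
Log2 expression value (vertical axis) of each of the 10 genes on each array (points) in control cultures and at 50 and 300 mg/L BPA, with the mean and SD of 3 arrays. TIS11, ISA1 and CTH1 lie higher at 300 mg/L than in control by 1.49, 1.16 and 0.93, NFS1 differs by -0.28, and 50 mg/L replicate 2 is the lowest array for ISU1 and YFH1 and the highest of its group for AFT1.

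TIS11 had values of 7.28, 7.23 and 7.46 in control cultures, 7.44, 7.36 and 7.63 at 50 mg/L, and 8.77, 8.75 and 8.94 at 300 mg/L. The 300 mg/L arrays were far above all others, while the control and 50 mg/L arrays overlapped. Each 50 mg/L value was above the control value of the same replicate number. TIS11 did not pass at 50 mg/L in any setting, including those that matched arrays by number. TIS11 rose 2.82-fold at 300 mg/L against control (95% interval 2.43 to 3.26), a log2 change of 1.49 ± 0.09 (SE; adjusted p = 2.55e-06 by limma). This placed it 114th from the top among the 5449 log2 changes.

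Its paralogue CTH1 had 8.14, 7.96 and 7.77 in control cultures, 7.95, 7.89 and 7.88 at 50 mg/L, and 9.03, 8.73 and 8.90 at 300 mg/L. Here too the 300 mg/L arrays stood clear of the rest. CTH1 rose 1.90-fold (interval 1.62 to 2.23), a log2 change of 0.93 ± 0.10 (SE; adjusted p = 6.57e-05 by limma).

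HMX1, the haem oxygenase gene, had 5.09, 4.90 and 4.97 in control cultures, 5.03, 4.92 and 5.04 at 50 mg/L, and 5.31, 5.75 and 5.57 at 300 mg/L. Its 300 mg/L values were the most scattered of the 10 genes at that dose, with an SD of 0.22, but all 3 lay above the control values. HMX1 rose 1.47-fold (interval 1.25 to 1.73; adjusted p = 0.00162 by limma). After a repeated quantile normalization over the genes the log2 change was 0.23, against 0.55 as deposited, and the call was lost (adjusted p = 0.143 by limma).

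The regulator AFT1 had 7.23, 7.48 and 7.45 in control cultures, 7.42, 7.84 and 7.48 at 50 mg/L, and 8.19, 8.14 and 8.29 at 300 mg/L. All 3 arrays at 300 mg/L were above the other 6, and 50 mg/L replicate 2 was the highest of those 6. AFT1 rose 1.76-fold at 300 mg/L (interval 1.48 to 2.11), a log2 change of 0.82 ± 0.11 (SE; adjusted p = 0.000263 by limma). The arrays measure its transcript only, and the activity of Aft1, which is known to depend on where the protein sits in the cell, was not measured.

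Among the cluster assembly genes, the scaffold gene ISU1 had 8.85, 8.84 and 8.85 in control cultures, 8.81, 8.40 and 8.76 at 50 mg/L, and 9.36, 9.31 and 9.48 at 300 mg/L. The control arrays lay very close together, and the 300 mg/L arrays were all higher. ISU1 rose 1.45-fold (interval 1.24 to 1.70; adjusted p = 0.00157 by limma).

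ISU2, which encodes the other scaffold protein, had 9.55, 9.75 and 9.74 in control cultures, 9.56, 9.67 and 9.69 at 50 mg/L, and 9.82, 10.04 and 9.86 at 300 mg/L. The gap between the highest control array and the lowest 300 mg/L array was narrow. ISU2 rose 1.17-fold, with an adjusted p of 0.0449 by limma, but the call was lost in 6 of the 9 fits that left out 1 array. These were the fits without control replicate 1, 2 or 3, without 50 mg/L replicate 3 and without 300 mg/L replicate 2 or 3, with log2 changes of 0.16 to 0.26 and adjusted p of 0.057 to 0.175 by limma. The call was also lost with gene-median centring (adjusted p = 0.0604), array weights (0.0521) and spike-in centring (0.642), all by limma.

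The desulfurase gene NFS1 moved the other way. Its values were 9.39, 9.50 and 9.41 in control cultures, 9.36, 9.30 and 9.30 at 50 mg/L, and 9.13, 9.14 and 9.18 at 300 mg/L, so that the 3 groups did not overlap. At 300 mg/L NFS1 fell by 0.28 ± 0.06 (SE) on the log2 scale, a 1.22-fold decrease, with an adjusted p of 0.00322 by limma.

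YFH1, the frataxin gene, had 8.24, 8.18 and 8.16 in control cultures, 8.16, 7.81 and 8.01 at 50 mg/L, and 8.55, 8.68 and 8.65 at 300 mg/L. The lowest of the 9 values was 50 mg/L replicate 2. YFH1 rose 1.35-fold at 300 mg/L (interval 1.17 to 1.55; adjusted p = 0.00266 by limma).

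Of the late-acting factors, ISA1 had 8.37, 8.43 and 8.24 in control cultures, 8.34, 8.39 and 8.36 at 50 mg/L, and 9.67, 9.28 and 9.58 at 300 mg/L. It rose 2.24-fold (interval 1.92 to 2.61), a log2 change of 1.16 ± 0.10 (SE; adjusted p = 1.35e-05 by limma), and ranked 177th from the top among all genes. It had the largest log2 change of the assembly genes among the 10.

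ISA2 had 8.61, 8.65 and 8.51 in control cultures, 8.61, 8.48 and 8.57 at 50 mg/L, and 8.77, 8.69 and 8.78 at 300 mg/L. The 300 mg/L arrays were just above the control arrays. Its log2 change was 0.15 ± 0.07 (SE), with an interval from 0.0005 to 0.31 and an adjusted p of 0.0849 by limma, and without 50 mg/L replicate 2, which enters only through the shared spread, the adjusted p was 0.0426. ISA2 also passed with centring on the fission yeast probe sets (log2 change 0.20, adjusted p = 0.0348 by limma) and with array weights (0.14, adjusted p = 0.0295 by limma), but in none of the other 9 settings.

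**Figure D2:**
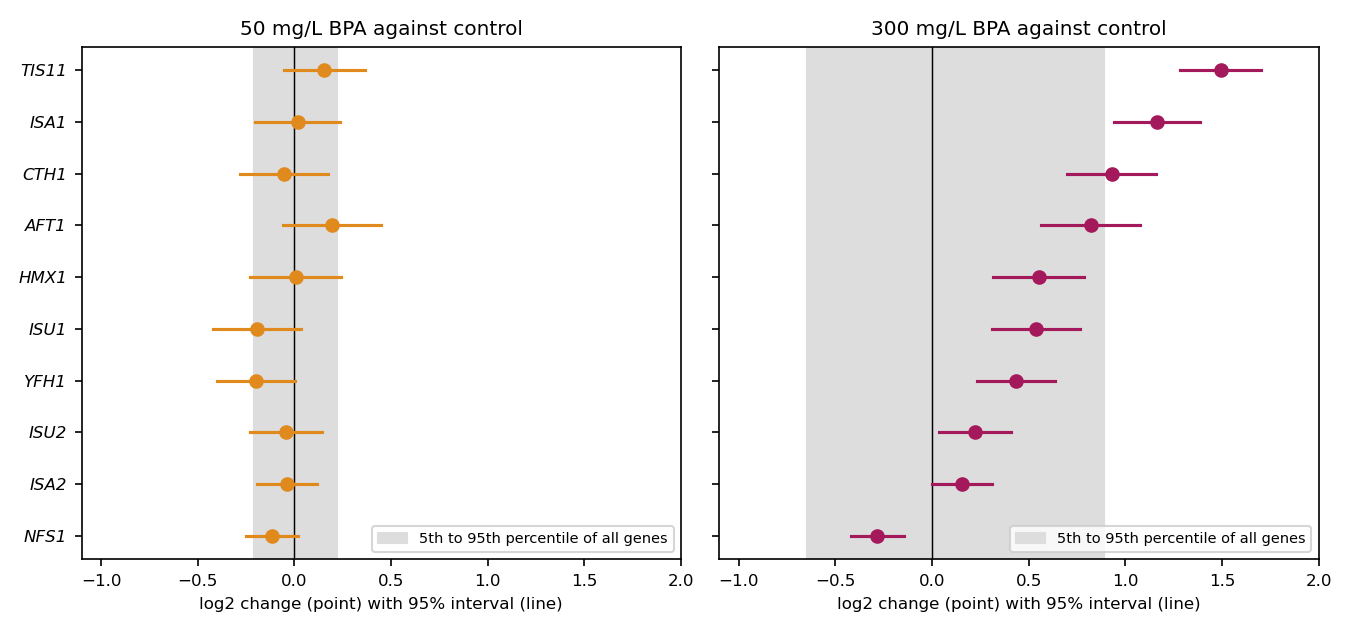
Log2 change (points) with its 95% interval (lines) for each gene at 50 mg/L (left) and 300 mg/L (right) against control; the grey band spans the 5th to 95th percentile of all genes. At 50 mg/L every interval includes 0, and at 300 mg/L TIS11, ISA1 and CTH1 lie above the band's upper edge of 0.89.

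TIS11, CTH1, ISA1 and AFT1 passed at 300 mg/L in all 11 other processing settings and in all 9 fits with 1 array left out. The mean of the hybridization spike-ins lay between 8.53 and 8.84 on the 300 mg/L arrays and between 8.51 and 8.76 on control arrays. When the arrays were centred on it, ISU1, ISU2, NFS1 and YFH1 kept their direction but no longer passed (adjusted p = 0.0504, 0.642, 0.118 and 0.151 by limma). Their log2 changes were then 0.45, 0.14, -0.37 and 0.35, against 0.54, 0.22, -0.28 and 0.43 as deposited, so that of NFS1 was larger in size. The SE in that fit was 0.18 for each of them, where it was at most 0.10 as deposited. In the same 300 mg/L arrays the probe set for the 3' end of 25S ribosomal RNA averaged 13.49, against 12.46 in control arrays, and that for the 3' end of 18S averaged 13.33, against 12.28. The 5' probe set of 25S averaged 12.58 at 300 mg/L and 12.36 in control arrays, and that of 18S averaged 12.96 at 300 mg/L and 13.11 in control arrays. The part of these shifts in the changes above was not tested. The difference between the 3' and 5' probe sets of ACT1, a measure of RNA integrity, averaged 0.62 at 300 mg/L and 0.63 in control arrays, and that of SPT15 averaged 1.17 at 300 mg/L and 1.27 in control arrays.

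At 50 mg/L BPA 0 of the 10 genes passed, and over all genes limma called 0 (0.0%). The log2 changes against control ran from -0.20 for YFH1 to 0.19 for AFT1, with a median of -0.04, and 0 of 10 had an unadjusted p under 0.05. Over all genes 389 (7.14%) had an unadjusted p under 0.05. All 10 intervals included 0, and together they reached from -0.42 to 0.45, so a change of TIS11 or ISA1 as large as at 300 mg/L lay outside them. This comparison shares its control arrays with the one above.

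Only ISU1 and NFS1 had 3 arrays at 50 mg/L that did not overlap the control arrays, and in both they were lower. Over all genes 6.5% were lower and 6.06% higher without overlap. ISU1 differed by -0.19 ± 0.10 (SE) and NFS1 by -0.12 ± 0.06, with an adjusted p of 0.581 for each by limma. Without 50 mg/L replicate 2 the log2 differences were -0.07 for ISU1, -0.11 for YFH1 and 0.06 for AFT1, which were -0.19, -0.20 and 0.19 with it. None of the 10 passed in that fit either.

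Between the doses, at 300 against 50 mg/L, 9 of the 10 genes were higher and NFS1 was lower, where 52.8% of all genes passed, 27.5% higher and 25.3% lower. This comparison shares its arrays with both of the others. TIS11 was 2.53-fold higher, ISA1 2.21-fold, CTH1 1.98-fold, ISU1 1.66-fold, YFH1 1.55-fold, AFT1 1.54-fold and HMX1 1.46-fold. By limma the adjusted p was 3.83e-06 for TIS11, the smallest of the 7, and 0.00176 for HMX1, the largest. ISU2 and ISA2 were higher by 0.27 and 0.19 on the log2 scale, and NFS1 differed by -0.17, with adjusted p of 0.0208, 0.039 and 0.0401 by limma. With 1 array left out, the call of NFS1 held in 1 of the 9 fits, that without 50 mg/L replicate 2. That of ISA2 held in 3, those without control replicate 3, 50 mg/L replicate 1 or 300 mg/L replicate 2. In the other fits the adjusted p by limma reached 0.11 for NFS1 and 0.112 for ISA2. That of ISU2 was lost without 50 mg/L replicate 1 or 300 mg/L replicate 2 (adjusted p = 0.0633 and 0.0779 by limma).

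Related genes were also compared with each other within arrays. The difference between 2 genes was taken within each array, which cancels any shift of the whole array, and compared between groups by a two-sided exact permutation test. With 3 arrays against 3 that test cannot give a p below 0.1. The pairs were chosen after the values were seen, and 9 such tests were made.

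**Figure D3:**
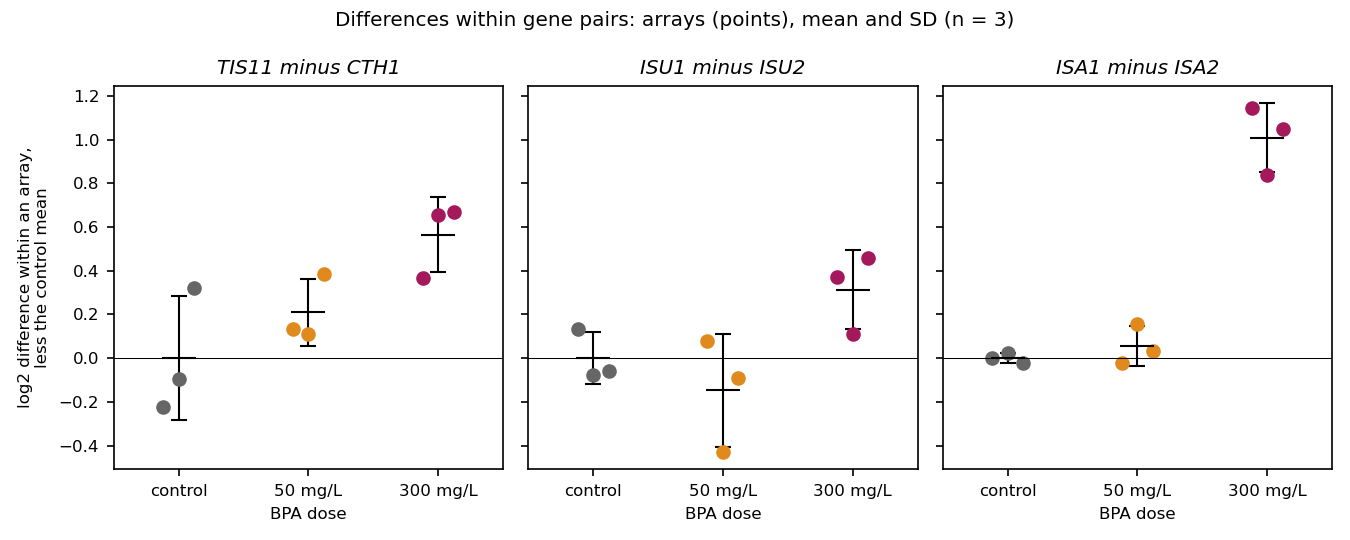
Difference of log2 values within an array (points, less the control mean) for 3 pairs of related genes by BPA dose, with the mean and SD of 3 arrays. ISA1 gains on ISA2 at 300 mg/L by 1.01 with no overlap, TIS11 gains on CTH1 by 0.56, and ISU1 minus ISU2 overlaps between 300 mg/L and control.

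For ISA1 minus ISA2 the values were 0.90, 0.59 and 0.80 at 300 mg/L, against -0.24, -0.22 and -0.27 in control cultures. The groups did not overlap, and the log2 difference of ISA1 exceeded that of ISA2 by 1.01 on the log2 scale, or 2.01-fold (exact permutation p = 0.1, adjusted 0.225 over the 9 tests).

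For TIS11 minus CTH1 they were -0.27, 0.02 and 0.04 at 300 mg/L, against -0.86, -0.73 and -0.31 in control cultures, a gain of 0.56 for TIS11 (exact permutation p = 0.1, adjusted 0.225). Control replicate 3 lay close to the lowest array at 300 mg/L. For ISU1 minus ISU2 the gain at 300 mg/L was 0.31 and the groups overlapped (exact permutation p = 0.2, adjusted 0.3). Against 50 mg/L ISU1 gained 0.46 and ISA1 0.955 on their partners, both without overlap (exact permutation p = 0.1, adjusted 0.225). There TIS11 gained 0.355 on CTH1 with overlap (exact permutation p = 0.2, adjusted 0.3). Between 50 mg/L and control every pair overlapped. None of these differences could reach a p of 0.05 in this design.

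Of all other genes, those with a profile most like TIS11 over the 9 arrays were SIT1, a siderophore transporter gene (Pearson's r = 0.995), YGR035C (r = 0.994) and FET3, the ferroxidase gene of high-affinity iron uptake (r = 0.994). These points share the split between the 300 mg/L arrays and the rest, and 294 of 5448 genes had an r over 0.95 with TIS11. With each group's mean taken out, the r values over the 9 arrays were 0.87 for SIT1, 0.75 for YGR035C and 0.70 for FET3. These genes were picked by their r on the same arrays, and no such values of other genes are given. The values are therefore a description only. Among the other 9 genes of the set, r with TIS11 ran from -0.91 for NFS1 to 0.96 for ISA1.

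**Figure D4:**
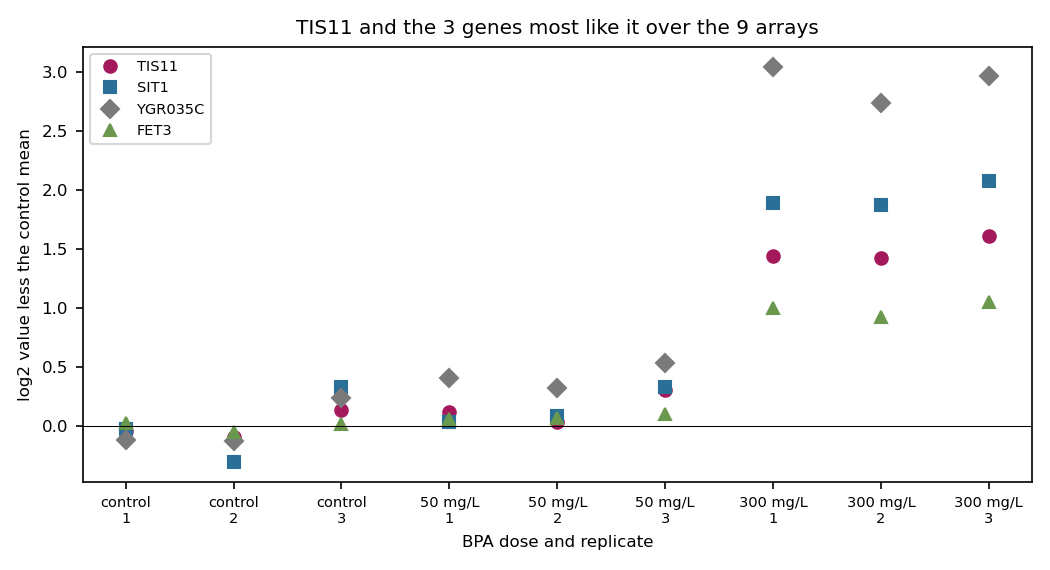
Log2 value less the control mean for TIS11 and the 3 genes most like it, on each of the 9 arrays ordered by BPA dose. The 4 genes lie between -0.30 and 0.33 in control cultures, between 0.04 and 0.53 at 50 mg/L, and between 0.92 and 3.05 at 300 mg/L.

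Beyond the 10 genes, the rest of the mitochondrial assembly pathway did not move in 1 direction at 300 mg/L. Of 12 measured genes 2 rose (16.7%) and 4 fell (33.3%), with a median log2 change of 0.004, where 27.5% of all genes were higher and 25.2% lower. YAH1, the ferredoxin that supplies electrons for cluster synthesis, rose by 0.68 ± 0.06 (SE), and ISD11, the partner protein of Nfs1, rose by 0.65 ± 0.09. The fallers were SSQ1, the mitochondrial Hsp70 of cluster transfer, by 0.46 ± 0.09, ARH1, the reductase that feeds Yah1, by 0.29 ± 0.08, the glutaredoxin gene GRX5 by 0.21 ± 0.07 and JAC1, the J-protein that works with Ssq1, by 0.19 ± 0.06. Adjusted p for these 6 ran from 1.91e-05 for YAH1 to 0.0309 for GRX5 by limma. The count of falls was 2 in place of 4 without control replicate 1 or 2, or without 300 mg/L replicate 2 or 3. It was also 2 with centring on the fission yeast probe sets, and 1 with the spike-ins. GRX5 and JAC1 were named after their values were seen, as were YAE1, ILV3, ACO1, GLT1, DPH1, BIO2, ERG3, ERG25, ERG11, ERG5 and AFT2 among the lists that follow.

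Of 10 cytosolic assembly genes 3 rose (30%, near the 27.5% of all genes) and 0 fell, where 25.2% of all genes were lower. The 3 were CFD1, a scaffold of the cytosolic pathway, by 0.49 ± 0.10 (SE), NAR1, which acts after the scaffold, by 0.47 ± 0.08, and YAE1, an adaptor for delivery to Rli1, by 0.32 ± 0.08. The adjusted p by limma was 0.000879 for NAR1, 0.00237 for CFD1 and 0.00765 for YAE1. By limma 4 of the 10 had an unadjusted p under 0.05, as had 58.2% of all genes. With array weights 1 fell, and centred on the spike-ins 0 rose.

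Of 21 measured genes whose proteins carry iron-sulfur clusters, 4 rose (19%) and 5 fell (23.8%), with a median of 0.08. Over all genes 27.5% were higher and 25.2% lower, so neither share stood above that of all genes. The fallers were led by 2 genes of the respiratory chain, RIP1, the Rieske protein of complex III, and SDH2, the cluster subunit of succinate dehydrogenase, which fell by 1.50 ± 0.12 and 1.01 ± 0.11 (SE). ILV3, of branched-chain amino acid synthesis, fell by 0.39 ± 0.10, the aconitase gene ACO1 by 0.32 ± 0.08 and GLT1, glutamate synthase, by 0.23 ± 0.07. SDH2 read 8.03, 7.89 and 7.97 at 300 mg/L, against 9.14, 8.98 and 8.82 in control cultures, with no overlap. Adjusted p for these 5 ran from 8.38e-06 for RIP1 to 0.019 for GLT1 by limma. Transcripts of SDH2, RIP1 and ACO1 are among those known to be controlled by Tis11. Whether the rise of TIS11 had a part in these falls was not tested, and 12 of the 21 genes did not pass.

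The rises in this list were smaller, with TYW1, of wybutosine synthesis, at 0.33 ± 0.08 (SE), the DNA glycosylase gene NTG2 at 0.31 ± 0.07, DPH1, of diphthamide synthesis, at 0.29 ± 0.10 and the biotin synthase gene BIO2 at 0.24 ± 0.09. By limma the adjusted p was 0.00411 for NTG2, the smallest of these 4, and 0.0491 for BIO2, the largest. Without control replicate 1 or 300 mg/L replicate 2, 2 genes of the 21 rose in place of 4. Centred on the spike-ins, 0 of the 21 rose and 3 fell, and with array weights 9 fell.

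RIP1 is covered by 3 further probe sets that the array carries as controls. At 300 mg/L the gene's own probe set read 7.72, 8.08 and 7.94, against 9.53, 9.42 and 9.30 in control cultures. The control probe sets for its 3' end, middle and 5' end differed by -1.31, -1.54 and -1.50 between the same groups, against -1.50 for the gene's own. The 4 probe sets of RIP1 thus differed between the groups by similar amounts.

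Of 19 measured genes of haem and di-iron proteins 10 fell (52.6%, against 25.2% of all genes) and 5 rose (26.3%, near the 27.5% of all genes), with a median of -0.30. CTA1, the peroxisomal catalase, rose by 3.31 ± 0.31 (SE), CYB2, lactate dehydrogenase, by 0.96 ± 0.18 and the sterol synthesis genes ERG3, ERG25 and ERG11 by 0.52, 0.35 and 0.20. CTA1 read 7.55, 6.08 and 7.44 at 300 mg/L, against 3.84, 3.67 and 3.61 in control cultures, so that replicate 2 lay below the other 300 mg/L arrays but far above control. The largest falls were those of CYC7, a cytochrome c isoform, by 1.00 ± 0.21, and CCP1, cytochrome c peroxidase, by 0.85 ± 0.08. A further sterol synthesis gene of this list, ERG5, went the other way from ERG3, ERG25 and ERG11 and fell by 0.30 ± 0.07. By limma the adjusted p was 2.36e-05 for CTA1, 2.6e-05 for CCP1, 0.00125 for CYB2 and 0.0024 for CYC7, and that of the ERG genes was at most 0.0196. Centred on the spike-ins, 2 of the 19 rose.

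**Figure D5:**
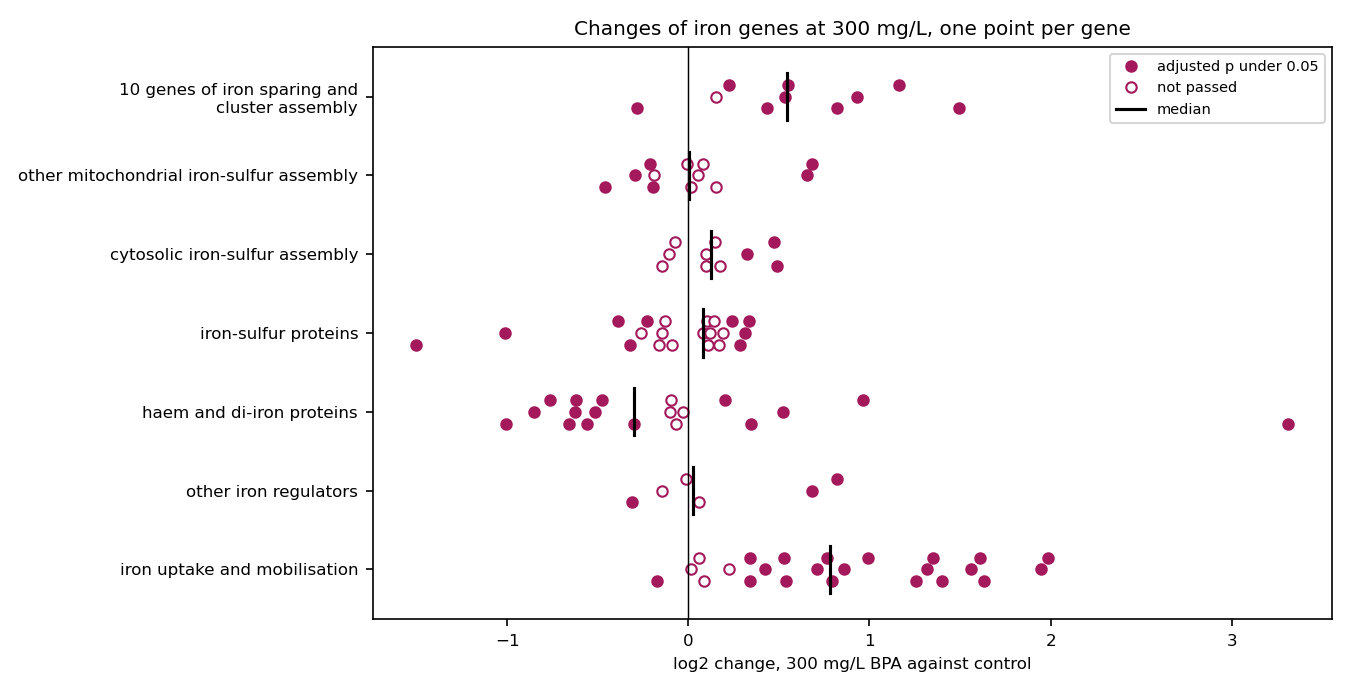
Log2 change at 300 mg/L BPA against control for each measured gene (points, filled where the adjusted p by limma was under 0.05) in the 10-gene set and 6 other iron gene lists, with the median of each list (black line). The medians run from -0.30 for haem and di-iron proteins to 0.78 for iron uptake and mobilisation.

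Of the 6 other regulators of the iron response 2 rose (33.3%) and 1 fell (16.7%), where 27.5% of all genes were higher and 25.2% lower. BOL2 (also called FRA2), which takes part in relaying cluster status to Aft1, rose by 0.82 ± 0.06 (SE; adjusted p = 7.82e-06 by limma). YAP5, an activator under high iron, rose by 0.68 ± 0.08 (adjusted p = 6.98e-05 by limma), and GRX3, a glutaredoxin of the same relay, fell by 0.31 ± 0.08 (adjusted p = 0.0113), a call lost without control replicate 2 (adjusted p = 0.051 by limma) and with spike-in centring (0.0912). With quantile normalization repeated or with array weights 2 of these 6 fell. Of all 5449 genes 1629 and 1786 fell in those settings, against 1372 as deposited. AFT2, the paralogue of AFT1, had a log2 change of -0.14, with an adjusted p of 0.136 by limma. Of 24 genes of iron uptake and mobilisation 19 rose (79.2%, against 27.5% of all genes), led by the reductase gene FRE1 and by SIT1, at 1.98 ± 0.14 and 1.95 ± 0.15 (SE). The 1 that fell (4.17%, against 25.2% of all genes) was FET5, a vacuolar multicopper oxidase gene, by 0.17 ± 0.07 (adjusted p = 0.0489 by limma). That fall was lost in 7 of the 9 fits with 1 array left out, all but those without 50 mg/L replicate 1 or 2, and in 5 of the 11 other settings. At 50 mg/L 0 of the 92 genes in these 6 lists passed, and of all 5449 genes 0 did. Between 0 and 2 genes of each list had an unadjusted p under 0.05 by limma, where 7.14% of all genes did.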

How the data were processed

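Values were log2 expression values as deposited, 1 column per array. RMA, affy and limma are named in the submitters' processing notes, without versions or roles. Of 10928 probe sets, 5498 were annotated to S. cerevisiae and 1746 to S. pombe. The probe set with the highest mean was kept for each of 47 genes with several, leaving 5449 genes, all tested.

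limma 3.58.1 (R 4.3.3) fitted group means over 9 arrays, with eBayes and Benjamini-Hochberg adjustment over all 5449 genes. On simulated data for 300 mg/L against control (5449 genes, 200 changed, 10 runs), 41.4% of genes changed 1.25-fold, 83.4% changed 1.5-fold and 97.4% changed 2-fold were recovered, and 5.48% of calls were false. In the data 2872 genes passed, far more than the simulation changed. The adjustment depends on that share, so these rates need not hold for the real comparison. Alternatives were 4 other scalings, array weights, 6 arrays, a low-value filter, the dimmest probe set, another variance prior, a replicate block and leaving out each array.

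The 10 genes and the 6 other lists (92 of 94 named genes measured) were chosen with earlier results of these data known. Named were all 10 members, per list the 2 largest rises and falls that passed at 300 mg/L (else the 2 smallest p), and the 3 genes most correlated with TIS11. The remaining genes of counts up to 5, and AFT2 and ERG5, were named after their values were seen. Locus tags came from RefSeq R64, used for names only. No sequence was used here.

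Same-numbered control and 50 mg/L arrays deviated together (r = 0.42, 0.19 and 0.28 across genes), and r of unlike numbers ran from -0.43 to 0.18. For 300 mg/L against control the same-numbered values were 0.07, 0.09 and -0.34, and those of unlike numbers ran from -0.30 to 0.33. The main fits left the arrays unpaired in every comparison, and same-numbered arrays were matched only in the replicate block, an alternative.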

Additional observations from a re-analysis of the deposited data

How the results depend on the processing

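Among the alternatives, centring on the spike-ins alone moved the counts over all genes at 300 mg/L by more than 1.5 times. Against control it called 1532 genes (679 higher, 853 lower), with 5 of the 10 members higher and 0 lower. Against 50 mg/L it called 1417 (882 higher, 535 lower), with 0 members lower. Of the calls against control 52.2% were higher as deposited, 44.3% with the spike-ins, 44.4% with quantile normalization repeated and 59.6% with S. pombe centring, and against 50 mg/L 52.0%, 62.2%, 44.9% and 58.6% in the same order. Counts in the smaller lists moved under further settings, as given beside them. NFS1, the 1 member lower against 50 mg/L, was also lost with S. pombe centring, in fits of 6 arrays and with the replicate block over 9 or 6 arrays, each giving 0. With each array left out, 300 mg/L against control gave 2338 to 3313 genes and 7 to 9 members higher, and 300 against 50 mg/L gave 2408 to 2998 genes and 0 to 1 members lower.

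At 50 mg/L against control, array weights called 31 genes (14 higher, 17 lower) and the replicate block over 6 arrays called 1 (1 higher), where the unblocked fit called 0. No member was among them: with that block the members' adjusted p by limma ran from 0.469 to 0.973. Over the 11 other settings, the smallest adjusted p by limma was 0.06 for TIS11, 0.0796 for NFS1 and 0.101 for YFH1. The log2 change of TIS11 ran from 0.05 to 0.31 over these settings. The sign of small differences at 50 mg/L was not fixed. HMX1 was -0.10 with the spike-ins, which shifted the median gene to -0.11, and -0.013 with gene-median centring, and ISA1 was -0.0912, -0.00231 and, with array weights, -0.0199. With each array left out, CTH1 ran from -0.15 to 0.0369, HMX1 from -0.0365 to 0.0597, ISA1 from -0.0363 to 0.0588 and ISA2 from -0.0786 to 0.00213. The causes were not tested.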
